A study of Acipenser ruthenus with 35 samples.

Results

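Section B is the subanimal section of the oocyte of the sterlet (Acipenser ruthenus), next to the extreme animal one. It was represented by 7 of the 35 libraries of the series, 4 from big oocytes (oocytes 1, 2, 3 and 11) and 3 from small oocytes (oocytes 5, 6 and 8). Single oocytes were oriented along the animal-vegetal axis and cut into 5 sections, A at the animal end and E at the vegetal end, and the RNA of each section was sequenced on its own after depletion of ribosomal RNA (TOMO-Seq). Big oocytes were advanced vitellogenic with diameters between 1920 and 2100 µm, and small oocytes were early vitellogenic with diameters between 1320 and 1500 µm. No oocyte was treated. All big oocytes came from 1 mature female and all small oocytes from 1 other female, and more RNA entered the libraries of big oocytes, so stage, female and RNA input cannot be told apart in any comparison below. The replicates are separate oocytes of 1 female, and their spread is that between cells of 1 animal.

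An oocyte stores RNAs that are used after fertilization, and their uneven placement along the animal-vegetal axis prepares the later division of the embryo into germ layers and germ line. Vitellogenesis is the phase in which yolk accumulates and the oocyte grows. The nucleus of the oocyte, the germinal vesicle, lay animally in big and centrally in small oocytes according to the microscopy of the study. The comparison asks which transcripts differed in section B between the stages, and whether B differed between the stages in another way than the rest of the oocyte.

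The identity of section B was checked on 3 marker transcripts, exd2, slc44a3 and dnd1, which the study named in its list of RT-qPCR primers. The primers are shown because they tie the 3 names to the transcripts counted here, and the last 5 bases, at which the polymerase starts to extend, are in capitals (all written 5′ to 3′).
exd2 forward: gtgttggtggaaagacagGAAGA
exd2 reverse: gcaccggcaaccCCAAA
slc44a3 forward: aggctgctcttcggCTATG
slc44a3 reverse: acacctccttccgatCAGTC
dnd1 forward: ggactcagaaaatggggatctcCCTGG
dnd1 reverse: aaacctcacagccagaggaaGGGGG
The study chose samples for sequencing by RT-qPCR gradients of marker transcripts, so a gradient of these markers within a stage is a check of the labels and no finding.

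The 4 libraries of section B from big oocytes held 6201356, 7263464, 4455798 and 3998504 counts in oocytes 1, 2, 3 and 11, and the 3 from small oocytes held 4669836, 4946568 and 5034718 counts in oocytes 5, 6 and 8. Over the whole series, libraries held between 1816470 and 11348306 counts in big and between 1653598 and 6817459 counts in small oocytes. Pearson's correlation of log2 levels across transcripts lay between 0.969 and 0.977 for pairs of big oocytes and between 0.972 and 0.975 for pairs of small oocytes, against 0.922 to 0.93 for pairs of different stage. No pair agreed within sampling noise, with a chi-square of at least 2.19 per degree of freedom. The first principal component held 58.5% of the variance and separated the stages. The second held 10.7% and set section B of big oocyte 11 (-46.7) apart from the other 6 libraries (-9.27 to 21.7). Values without that library are given below for some results, among them the numbers called and the test of B against the other sections, and not for all.

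The markers placed section B between its neighbours in both stages. Exd2 (TRINITY_DN53171_c2_g1_i1_1), a gene for an exonuclease and an animal marker here, averaged 253, 13.1 and 1.5 CPM (counts scaled to a common library total) in sections A, B and C of big oocytes, against 556, 43.5 and 6.7 CPM in the same sections of small oocytes. Slc44a3 (TRINITY_DN46825_c2_g1_i1_1), a gene for a choline transporter-like protein and the other animal marker, averaged 63.5, 9.28 and 2.1 CPM in A, B and C of big oocytes, against 109, 15 and 4.08 CPM in small oocytes. Dnd1 (TRINITY_GG_79323_c2_g1_i2_1), which encodes an RNA-binding protein needed for germ cells in zebrafish and mouse, ran the other way, with 26.1, 64 and 204 CPM in A, B and C of big oocytes, against 92.2, 102 and 126 CPM in small oocytes. For all 3 markers the mean in B lay between those in A and C in both stages.

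Between the stages, exd2 was lower in section B of big oocytes. It had normalised counts (counts divided by the size factor of the library) of 98.8, 71.9, 41.4 and 56.6 in big oocytes 1, 2, 3 and 11, against 183, 287 and 199 in small oocytes 5, 6 and 8, without overlap of the groups. The log2 difference, big minus small, was -1.69 ± 0.27 (SE, edgeR quasi-likelihood test, adjusted p = 0.00246). The other animal marker was not called in this fit.

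Slc44a3 had normalised counts of 73.3, 47.9, 26.5 and 42.5 in section B of the 4 big oocytes, against 58.5, 102 and 68.9 in the 3 small oocytes. Big oocyte 1 lay within the range of the small oocytes, and the other 3 big oocytes below it. The log2 difference of -0.65 ± 0.30 (SE) did not pass the threshold of 0.1 (edgeR, adjusted p = 0.121), whereas without big oocyte 1 it was -0.95 with an adjusted p of 0.00552, and without small oocyte 5 it was -0.81 with an adjusted p of 0.0872. With all 7 libraries slc44a3 passed by DESeq2 (adjusted p = 0.0746), and by edgeR in the fit of all 35 libraries (adjusted p = 0.0395). The fit of all 35 libraries took its spread partly from sections of the same oocytes, treated as separate. Slc44a3 thus passed in 4 of the alternatives run, and in the other 9 it did not.

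The vegetal marker dnd1 had normalised counts of 227, 492, 276 and 317 in section B of the 4 big oocytes, against 556, 511 and 499 in the 3 small oocytes. The groups did not overlap, but big oocyte 2 came close to the small oocytes. The log2 difference of -0.65 ± 0.28 (SE) did not pass the threshold (edgeR, adjusted p = 0.143), and without big oocyte 2 it was -0.94 with an adjusted p of 1.03e-06. With all 7 libraries it passed by DESeq2 (adjusted p = 0.0731), and by edgeR in the fit of all 35 libraries (adjusted p = 0.0111), where sections of an oocyte were treated as separate. Dnd1 thus passed in 3 of the alternatives run and not in the other 10. Whether it was called depended on the test, the fit and big oocyte 2.

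**Figure D1:**
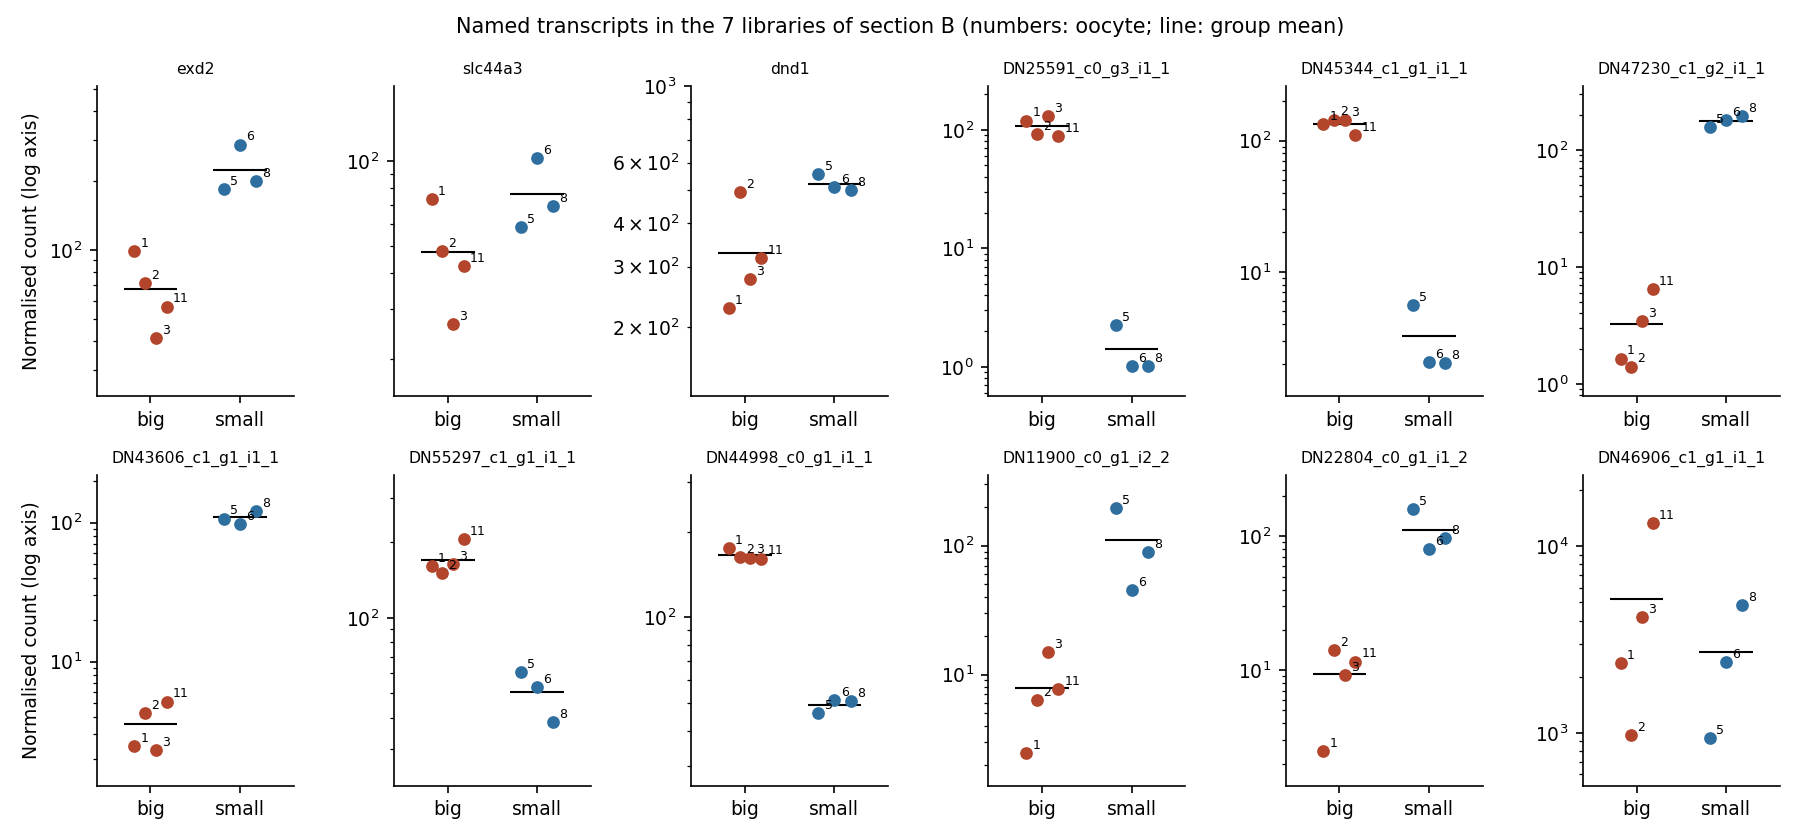
Normalised counts (log axis) of the 12 named transcripts in the 7 libraries of section B, big oocytes in red at the left and small oocytes in blue at the right of each panel; numbers give the oocyte and the line the group mean. Among the markers, exd2 and dnd1 do not overlap between the stages and slc44a3 does, TRINITY_DN46906_c1_g1_i1_1 overlaps, and the 8 transcripts named from the fits were chosen not to overlap.

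Over all transcripts of section B, higher and lower levels in big oocytes were about equally frequent, but this balance turned with the level of the transcripts, and the differences of the lower ones were larger. Of 25793 transcripts tested, 5099 (19.8%) were higher and 5046 (19.6%) were lower in big than in small oocytes at an adjusted p under 0.1 (edgeR), which makes 39.3% called in all. Without big oocyte 11, 5221 were higher and 5008 lower. The groups did not overlap in 4847 (18.8%) higher and 4798 (18.6%) lower transcripts. The median log2 difference was 0.47 among transcripts called higher and -0.76 among those called lower. Over 2-fold differences were found in 772 transcripts called higher and 1674 called lower, and over 4-fold differences in 174 and 323. The median over all tested transcripts was 0.02. Median-of-ratios scaling centres the differences near 0, so this median and the near-even split are largely set by it. A change in the total amount of RNA would not show.

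The direction and the size of the difference depended on the level. Lower calls outnumbered higher ones among transcripts of low level, with 794 higher and 1352 lower at a mean normalised count from 10 to under 30. Higher calls outnumbered lower ones among abundant transcripts, with 1326 higher and 716 lower from 300 to under 1000, and 310 higher and 174 lower at 1000 or above. With a minimum mean of 50 in place of 10, 4015 were higher and 3087 lower (56.5% of those called were higher). Among the 7700 transcripts with a mean normalised count from 10 to under 30, 27.9% were called, and 472 of these were over 2-fold higher and 881 over 2-fold lower in big oocytes. Among the 814 transcripts at 1000 or above, 59.5% were called, but only 2 were over 2-fold higher and 25 over 2-fold lower. Abundant transcripts of section B were thus called more often, at smaller differences. Of the transcripts tested, 12 had no count in section B of any big oocyte but between 62 and 494 counts over the small ones, and all 12 were called lower. Another 17 had no count in section B of any small oocyte but between 89 and 494 counts over the big ones. Of these 17, 15 were called higher. A transcript without counts in section B of a stage was tested only if its level in the other stage was high. The calls of both sets were thus largely fixed by the minimum level for testing, and nothing is read from them.

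**Figure D2:**
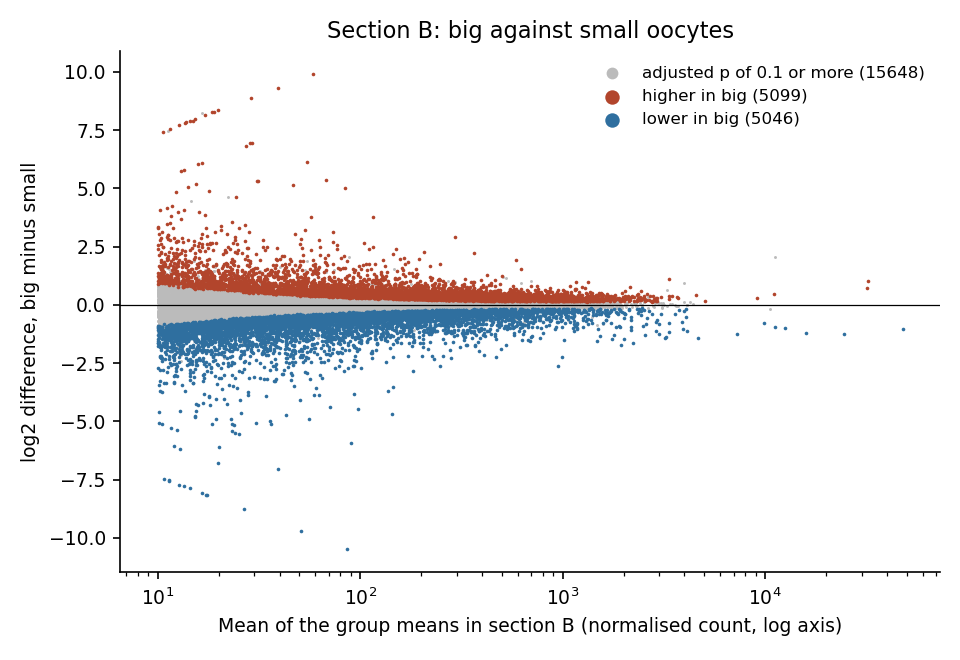
Log2 difference of section B, big minus small oocytes, against the mean normalised count of the 2 groups (log axis) for the 25793 transcripts tested, with the 5099 called higher in red, the 5046 called lower in blue and the other 15648 in grey. The cloud narrows with the level, and more called transcripts lie over 2-fold below 0 (1674) than above it (772).

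The transcript identifiers are not paired with gene names, so beside the markers only 2 in each direction are given by identifier. They had the largest differences among called transcripts without overlap of the groups. At least 100 normalised counts in the higher group and a count in every library of B were also required. Transcripts absent from section B of 1 stage were thereby left out. TRINITY_DN25591_c0_g3_i1_1 had 145, 130, 113 and 69 counts in section B of big oocytes 1, 2, 3 and 11, against 2, 1 and 1 counts in small oocytes 5, 6 and 8. It was nearly absent from section B of small oocytes, with 4 counts in all, and the ratio of scaled counts was 76.2 (95% interval 29.6 to 281, counting error only, PCR duplicates not considered). Its log2 difference was 6.14 ± 0.35 (SE, edgeR, adjusted p = 3.69e-11). In big oocytes its mean was highest in A with 39.7 CPM, and it averaged 21 CPM in B and 11 to 13 CPM in C, D and E.

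TRINITY_DN45344_c1_g1_i1_1 had normalised counts of 133, 144, 144 and 111 in section B of the 4 big oocytes, against 5.62, 2.04 and 2.03 in the 3 small oocytes, a log2 difference of 5.35 ± 0.28 (SE, edgeR, adjusted p = 1.34e-11). It was even along the axis of big oocytes, with means between 21.9 and 27 CPM in the 5 sections. In those of small oocytes the means lay between 0.624 and 1.48 CPM.

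Among transcripts lower in section B of big oocytes, TRINITY_DN47230_c1_g2_i1_1 had normalised counts of 1.65, 1.41, 3.45 and 6.44 in the 4 big oocytes, against 157, 179 and 195 in the 3 small oocytes. All libraries of big oocytes were near the limit of detection, at 2 to 5 counts, and the log2 difference was -5.91 ± 0.26 (SE, edgeR, adjusted p = 1.58e-12). TRINITY_DN43606_c1_g1_i1_1 had normalised counts of 2.47, 4.23, 2.30 and 5.15 in section B of big oocytes, against 107, 98.0 and 122 in small oocytes, a log2 difference of -4.91 ± 0.26 (SE, edgeR, adjusted p = 1.57e-11). These 4 transcripts differed in the same direction in every other section, with log2 differences of 3.72 or more for the pair higher in B and of -3.08 or less for the pair lower in B, and none of the 4 passed the test of B against the other sections described below (edgeR, adjusted p between 0.166 and 0.779).

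How far transcripts called in section B were called in the same direction elsewhere varied with the section. Of the transcripts higher in B, 2367 of 4916 were also higher in A, 3175 of 4919 in C, 2908 of 5032 in D and 2134 of 4866 in E, while 29, 33, 164 and 333 were lower in A, C, D and E. Of the transcripts lower in B, 2893 of 4744 were also lower in A, 3267 of 4705 in C, 3085 of 4954 in D and 2536 of 4665 in E, while 287, 66, 539 and 864 were higher in A, C, D and E. Calls in the same direction were thus most frequent in C and opposite calls most frequent in E. Over all transcripts tested, 4571 of 24289 were higher in A and 5047 of 24065 in C. In D these were 6529 of 26350, and in E 6179 of 24219. Lower were 4664 in A, 5046 in C, 6348 in D and 5798 in E. Calls of each direction were thus more frequent in D and E over all transcripts, and opposite calls were not set against this. Those called higher in B had a median log2 difference of 0.32 in A, 0.39 in C, 0.36 in D and 0.26 in E, against 0.47 in B itself, and those called lower had medians of -0.58 in A, -0.61 in C, -0.58 in D and -0.51 in E, against -0.76 in B. The other sections come from the same oocytes, and the transcripts were chosen by their values in B, so these medians are a description. Fitted alone in the same way, section B had 39.3% of its transcripts called, against 38% in A, 41.9% in C, 48.9% in D and 49.5% in E.

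Whether the stage difference of B differed from the mean of the other sections was tested as the difference between big and small in B minus the mean of that difference in A, C, D and E, over all 35 libraries. It was more positive in B for 861 (3.42%) and more negative in B for 1605 (6.37%) of 25185 transcripts (edgeR, adjusted p under 0.1), 9.79% in all. The more negative ones were also larger, with 545 over 2-fold against 36 of the more positive ones. Of the transcripts more negative in B, 979 were also called lower in section B alone, and of those more positive in B, 356 were also called higher there. Without small oocyte 6 the counts were 386 more positive and 1080 more negative, and without small oocyte 5 they were 509 and 1154. Without big oocyte 11 they were 825 and 1601. The fit treated the sections of an oocyte as separate and did not use their pairing. With the oocyte as block, 1179 were more positive and 2151 more negative.

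Set against its neighbours A and C only, section B differed for 3 transcripts in the positive and 116 in the negative direction (0.473% of 25185), 60 of which were also called against all 4 sections. The direction of the first split depended on the scaling, since scaling to library totals gave 1837 more positive and 1336 more negative transcripts (57.9% positive, against 34.9% with median-of-ratios scaling). That scaling moved the median over all transcripts to 0.08.

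The stage difference of dnd1 ran along the axis, with log2 values of -1.85 in A, -0.65 in B, 0.69 in C, 1.45 in D and 1.78 in E. In big oocytes it spanned 26.1 ± 4.6 CPM in A, 64 ± 22.5 CPM in B and 709 ± 28.3 CPM in E, against 92.2 ± 8.09, 102 ± 4.05 and 223 ± 25.1 CPM in small oocytes (SD, over 4, 4 and 3 libraries of big and 3, 3 and 4 libraries of small oocytes). Section B stood on the side of A, where levels were lower in big oocytes, and differed from the mean of the other sections by -1.20 ± 0.22 (SE, edgeR, adjusted p = 0.000885). Against A and C only, the difference was -0.08 with an adjusted p of 0.995. The crossing of the stages between B and C is visible in the plot of levels along the axis.

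The 2 transcripts named among those more positive in B were highest in E of small oocytes. TRINITY_DN55297_c1_g1_i1_1 had normalised counts of 161, 151, 163 and 206 in section B of big oocytes, against 60.7, 53.1 and 38.5 in small oocytes. In small oocytes its mean was lowest in B (9.87 ± 2.08 CPM, SD, n = 3) and highest in E (114 ± 40.4 CPM, n = 4). In big oocytes its section means lay between 25.6 and 38.3 CPM. The log2 difference was 1.74 ± 0.16 in B, and 1.61 ± 0.27 more positive than in the mean of the other sections (SE, edgeR, adjusted p = 0.00016).

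TRINITY_DN44998_c0_g1_i1_1 had normalised counts of 175, 163, 162 and 161 in section B of big oocytes, against 46.1, 51.1 and 50.7 in small oocytes. It averaged 32.3 CPM in B and 39.1 CPM in E of big oocytes, against 9.61 and 81.6 CPM in small oocytes. Its stage difference in B was 1.03 ± 0.23 more positive than in the other sections (SE, edgeR, adjusted p = 0.00291). Set against A and C only, the values were 0.72 (adjusted p = 0.62) and 0.44 (adjusted p = 0.82) for these 2 transcripts, so neither call stood.

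The 2 transcripts named among those more negative in B belonged to the centre of small oocytes. TRINITY_DN11900_c0_g1_i2_2 had normalised counts of 2.47, 6.34, 15.0 and 7.72 in section B of big oocytes 1, 2, 3 and 11, against 196, 44.9 and 89.2 in small oocytes 5, 6 and 8, and TRINITY_DN22804_c0_g1_i1_2 had 2.47, 14.1, 9.20 and 11.6, against 159, 80.7 and 96.3. Both were highest in small oocyte 5, and both were chosen among transcripts without overlap of the stages. The log2 differences in B were -3.87 ± 0.76 (adjusted p = 0.0131) and -3.56 ± 0.38 (adjusted p = 4.89e-05, both SE, edgeR).

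Along the axis, TRINITY_DN11900_c0_g1_i2_2 reached 21.2 ± 14.5 CPM in B and 52.3 ± 23.2 CPM in C of small oocytes (SD, n = 3 and 4), and TRINITY_DN22804_c0_g1_i1_2 reached 21.7 ± 7.52 and 52.4 ± 21.6 CPM. In A, D and E of small oocytes both had section means of at most 2.69 CPM. In big oocytes the section means of both lay between 1.4 and 5.2 CPM, highest in E. The stage difference in B minus the mean of those in A, C, D and E was -3.83 ± 0.69 (adjusted p = 0.000614) for the first and -3.24 ± 0.52 (adjusted p = 0.000124, both SE, edgeR) for the second. In section C the stage difference was itself more negative than in B, with log2 values of -4.81 and -5.04, so it was not particular to B, and the values against A and C only were -1.85 (adjusted p = 0.642) and -0.98 (adjusted p = 0.848).

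**Figure D3:**
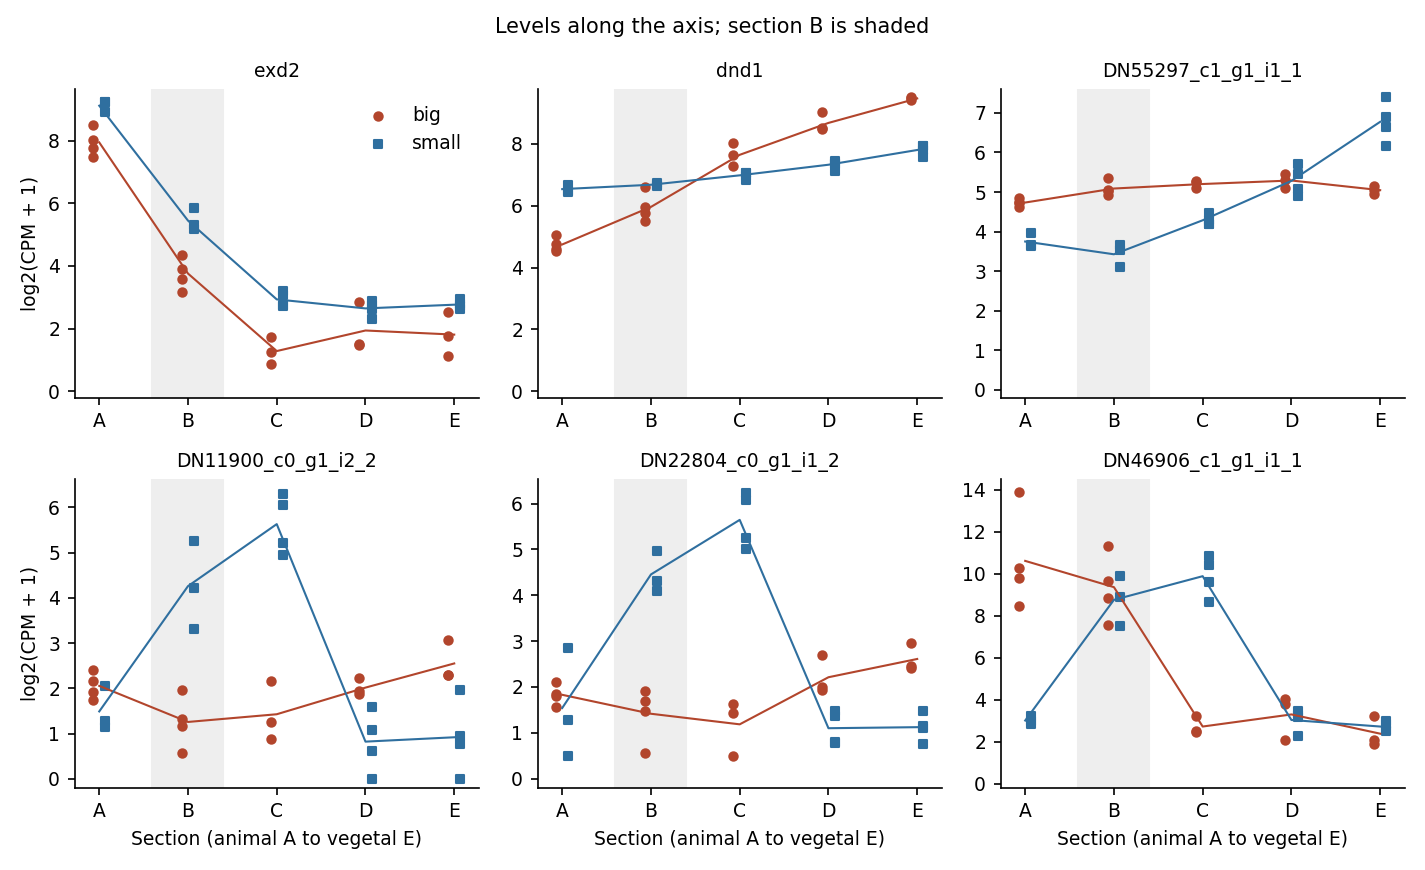
Levels of 6 transcripts as log2(CPM + 1) in every library of sections A to E, big oocytes as red circles and small oocytes as blue squares, with lines through the group means and section B shaded. Dnd1 crosses between B and C, the 2 transcripts at the lower left peak in C of small oocytes only, and TRINITY_DN46906_c1_g1_i1_1 is high in A and B of big and in B and C of small oocytes.

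The central pattern was followed in a list of transcripts fitted as sharing it. In small oocytes, 27 transcripts were over 4-fold higher in C than in the mean of A and E by the fitted log2 contrast. In that contrast 11.6% of 23418 transcripts passed the test in either direction. The list was drawn up from the libraries of A, C and E after the values had been seen, so it is described without a test. Of these, 26 had their highest section mean in C in small oocytes. The exception, TRINITY_DN46214_c0_g1_i2_1, averaged 8.19, 4.78 and 3.02 CPM in A, C and E there, so its place in the list rests on the fit alone. In big oocytes the highest mean was in A for 10 of the 27, in D for 7 and in E for 10, and in B or C for none. In section B, 24 of the 27 could be tested in the fit over all transcripts. Of these 24, 15 (62.5%) were lower and 0 were higher in big oocytes by edgeR, against 19.6% lower among all transcripts tested. At an unadjusted p under 0.05, 0 were higher and 15 lower, and DESeq2 called 1 higher and 14 lower. Without any 1 library, between 13 and 15 were called lower, and none was called higher except 2 without big oocyte 2. The list was chosen as high in C of small oocytes, and C lies next to B in the same cells. Lower levels in B of big oocytes can thus be built into the choice. How far they were was not tested, and nothing is read from the excess over all transcripts.

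The list is also given by the section of its highest mean in big oocytes. This split uses the levels of the same big oocytes that enter the difference in B, and can itself set that difference. How far it did was not tested, so nothing is read from its contrast. The 17 transcripts whose highest mean was in D or E of big oocytes were lower in section B of big oocytes in all 14 cases tested, with log2 differences between -3.87 and -1.34. The 10 transcripts whose highest mean was in A of big oocytes were all tested in B. Of these, 1 was called lower and 0 higher, with a median log2 difference of 0.30 and a range from -1.21 to 8.24. The value of 8.24 is that of TRINITY_DN46214_c0_g1_i2_1, which averaged 0 CPM in section B of small oocytes and was not called. The 10 included the 4 most abundant transcripts of the list in C of small oocytes.

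TRINITY_DN46906_c1_g1_i1_1, singled out after its values were seen, is an abundant member with its highest mean in A of big oocytes. It had normalised counts of 2376, 971, 4162 and 13346 in section B of big oocytes 1, 2, 3 and 11, against 939, 2390 and 4844 in small oocytes 5, 6 and 8. The ranges overlapped, and the log2 difference was 0.93 ± 1.08 (SE, edgeR, adjusted p = 0.581), or -0.13 without big oocyte 11. On either side of B the stages were far apart. In section A it had 352, 893, 1246 and 15258 CPM in big oocytes 1, 2, 3 and 11, against 6.91, 8.30 and 6.06 CPM in small oocytes 5, 6 and 8. In section C it had between 4.55 and 8.21 CPM in the 3 big oocytes, against between 405 and 1815 CPM in the 4 small oocytes. Section B was thus the only section in which this transcript was above 100 CPM in every library of both stages.

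The level summed over the 27 transcripts was carried by a few abundant members, and its highest section varied within each stage. It was highest in A in big oocytes 2 and 3 and in B in big oocyte 1, against C in small oocytes 5 and 6 and B in small oocyte 8. In section A the sum lay between 1010 and 46200 CPM in big oocytes, against 96.9 to 189 CPM in small oocytes. In section B it lay between 608 and 5830 CPM in big and between 813 and 3430 CPM in small oocytes, and in section C between 67.9 and 102 CPM in big and between 1680 and 6680 CPM in small oocytes. The highest values of A and B in big oocytes were both those of oocyte 11. The median over the 27 transcripts, which the abundant members do not carry, gave another picture. In section A it was 2.73 to 4.32 CPM in big and 1.62 to 3.11 CPM in small oocytes, which overlapped. In section B it was 1.94 to 2.75 CPM in big and 5.86 to 12.4 CPM in small oocytes, and in section C 0.828 to 2.07 CPM in big and 16.1 to 20.3 CPM in small oocytes, neither of which overlapped.

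Transcripts that were localized to either end of the axis in both stages were lower in section B of big oocytes more often than higher. The classes were formed from sections A and E only, so that no library of B entered them, but these came from the same oocytes. Passing the test in small oocytes may be easier for transcripts at higher levels there, so the choice itself could favour lower levels in big oocytes. Whether and how far it did was not tested, here or for the classes of small oocytes below. Of 783 tested transcripts that were higher in A than in E in both stages, 378 (48.3%) were lower and 96 (12.3%) were higher in section B of big oocytes, with a median log2 difference of -0.30. Of 985 that were higher in E than in A in both stages, 366 (37.2%) were lower and 103 (10.5%) were higher, with a median of -0.24. Over all tested transcripts these shares were 19.6% lower and 19.8% higher, with a median of 0.02. Exd2 is an example of the first class.

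The shares differed with the stage from which the class was read. Transcripts with A above E in small oocytes were lower in B of big oocytes in 45.2% of 1078 cases and higher in 11.4%, and those with E above A in 34.6% of 1126 cases and higher in 12%. Classed by big oocytes, those with A above E were lower in 19.2% of 7264 cases and higher in 21%, close to all transcripts, and those with E above A were lower in 27.6% of 5932 cases and higher in 16.6%. The classes of small oocytes are smaller, because 2386 of 23304 transcripts passed the test of A against E there (10.2%), against 14660 of 27424 (53.5%) in big oocytes.

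Without any 1 library of section B, the share called lower stayed between 41.5% and 51.1% for A above E in both stages, and between 30.8% and 44.4% for E above A. Transcripts with both ends above C in small oocytes were lower in B of big oocytes in 39.9% and higher in 14.4% of 1478 cases. Those with C above the ends in small oocytes, mostly by small differences, were lower in 21.1% and higher in 26.8% of 1168 cases, with a median of 0.05.

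**Figure D4:**
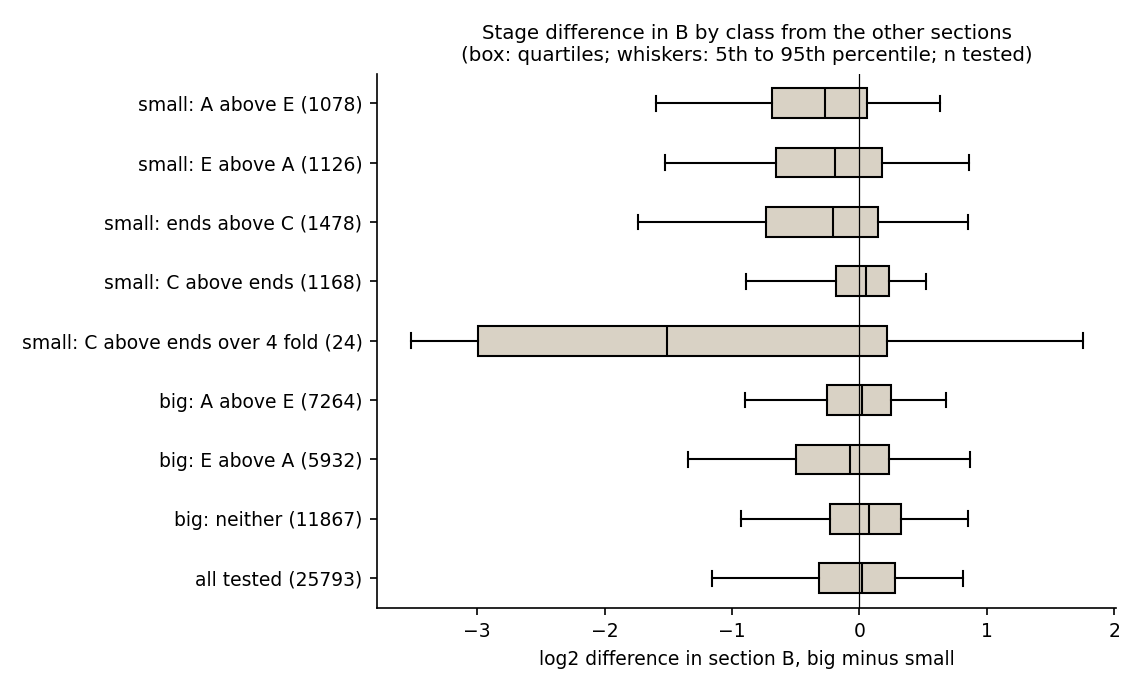
Log2 difference in section B, big minus small oocytes, by class of transcript formed from sections A, C and E, with boxes for the quartiles, whiskers from the 5th to the 95th percentile, and the number tested in parentheses. The classes of A above E, E above A and ends above C in small oocytes lie to the left of all tested transcripts, with medians of -0.27, -0.19 and -0.21 against 0.02.

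The place of section B between the ends of the oocyte was measured on the transcripts localized in the same direction in both stages, 803 animal and 1110 vegetal ones, as the mean log2 level of the animal minus that of the vegetal ones, set to 0 in section E and 1 in section A of the same oocyte. Section B lay at 0.684, 0.614 and 0.669 in big oocytes 1, 2 and 3, against 0.703, 0.627 and 0.666 in small oocytes 5, 6 and 8. The ranges overlapped, and the mean difference of -0.00973 had a p of 0.8 in a two-sided exact permutation test, in which 3 against 3 oocytes cannot give a p below 0.1. The choice of transcripts mattered, since on those localized in big oocytes, whatever their pattern in small oocytes, the difference was -0.24 (exact permutation p = 0.1), and on those localized in small oocytes it was 0.0192 (exact permutation p = 0.8). Sections C and D, given as a description, did not overlap between the stages. Section C lay at 0.288 to 0.357 in big and at 0.382 to 0.491 in small oocytes, and section D at 0.107 to 0.139 in big and at 0.221 to 0.297 in small oocytes.

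On the log2 scale itself, the animal minus vegetal level of section B was 1.42, 0.66, 1.08 and 1.08 in big oocytes 1, 2, 3 and 11, against 1.10, 1.14 and 1.12 in small oocytes 5, 6 and 8. The mean did not differ beyond the spread (-0.06, two-sided exact permutation test, p = 0.629, smallest possible 0.0571), but big oocytes varied more, with an SD of 0.31 (n = 4) against 0.02 (n = 3).

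**Figure D5:**
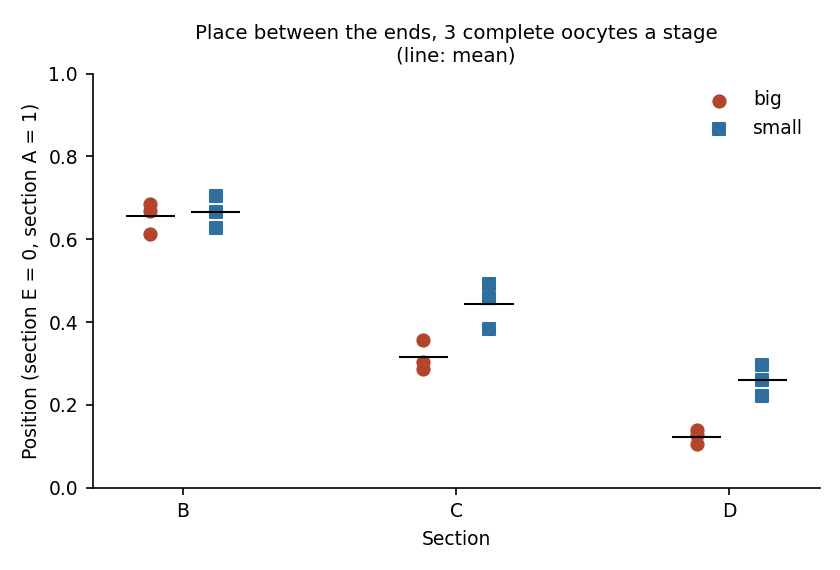
Place of sections B, C and D between section E (0) and section A (1) of the same oocyte, on transcripts localized alike in both stages, for 3 complete big (red circles) and 3 complete small oocytes (blue squares), with lines for the means. In B the stages overlap between 0.614 and 0.703, while in C and D every big oocyte lies below every small one.

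The distance of section B to its neighbours was larger in each of the 3 complete big than in each of the 3 complete small oocytes. Big oocyte 11, with libraries of A and B only, was left out, also for the distance of B to A. Over transcripts, the SD of the log2 ratio of B to A of the same oocyte, at equal depth, was 0.654, 0.571 and 0.613 in big oocytes 1, 2 and 3, against 0.530, 0.558 and 0.565 in small oocytes 5, 6 and 8. The SD of B to C was 0.587, 0.542 and 0.619 in big oocytes, against 0.497, 0.503 and 0.485 in small oocytes. Neither set of values overlapped between the stages, though for B to A the nearest values were 0.571 in big and 0.565 in small oocytes. Both had a p of 0.1 in a two-sided exact permutation test, the smallest that 3 against 3 allows. The study spread the slices of each oocyte equally over the sections, so sections of big oocytes were thicker. What the thickness adds to these distances was not tested.

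The number of transcripts detected and the share of the most abundant ones overlapped between the stages, and 4 against 3 libraries cannot show that the stages were alike. Thinned to 3998504 counts per library, section B held 40062 ± 403 transcripts in big oocytes (SD, n = 4), against 40568 ± 253 in small oocytes (n = 3, two-sided exact permutation test, p = 0.114). The numbers detected ranged from 39498 to 40426 in big and from 40371 to 40853 in small oocytes. The 10 most abundant transcripts took 3.88% ± 0.53 of the counts for big and 4.50% ± 0.46 for small oocytes (SD, n = 4 and 3, two-sided exact permutation test, p = 0.229). With 4 against 3 libraries the smallest possible p is 0.0571.

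Contigs of the same assembly gene can share reads, and their calls were compared. Of 24778 assembly genes tested in section B, 954 had more than 1 contig. In 181 of these 2 or more contigs were called, and only these could disagree. Contigs were called in opposite directions in 47 of the 181. Transcripts assembled de novo were higher in 22.9% and lower in 20.2% of 17145 cases, and those assembled with guidance of a genome were higher in 13.6% and lower in 18.3% of 8648 cases.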

How the data were processed

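The 7 libraries of section B were taken from a table of estimated counts of 49027 transcripts in 35 libraries. After trimming (Trimmomatic) and removal of reads from mitochondria and ribosomal RNA, the authors ran kallisto 0.43.1 on an assembled transcriptome of the species. The deposited estimated counts are whole numbers (100% of values) and were used unrounded. The deposited normalised and pooled tables were not used. Of the identifiers, 31093 are de novo and 17934 genome-guided, and 0 matched the RefSeq table of 80041 genes. Marker identifiers were read from the published primers.

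Section B was fitted alone with edgeR 4.0.16 (quasi-likelihood, robust, R 4.3.3) and median-of-ratios size factors of the 7 libraries, for transcripts with a mean of the group means of at least 10 normalised counts. The test against other sections used all 35 libraries, and the same minimum over 10 groups. p-values were adjusted after Benjamini and Hochberg over all transcripts tested, with a threshold of 0.1, as in the study. CPM are counts scaled to equal library totals. The log2 levels of the position score had a prior count of 2. Classes came from the same test on sections A and E, or A, C and E, within a stage with the oocyte as block. Named identifiers were the 2 with the largest difference in each direction and fit among those called, with at least 100 normalised counts in the higher group, a count in every library of B and no overlap. The scripts were tested on simulated data. Members, classes and lists were chosen with earlier results of these data known. The oocyte number pairs the sections of a single cell, but not the stages.

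Alternatives were TMM and library-total scaling, DESeq2 1.42.0, other filters, all libraries in 1 fit, the oocyte block and leaving out each library. Median-of-ratios scaling measures composition, not the amount of RNA. Intervals cover counting error only.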

Additional observations from a re-analysis of the deposited data

Results flagged for a closer look

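Of 16 sets of 4 libraries examined for a value far from the rest, 1 was found, and chance gives about 1 in 20: TRINITY_DN44998_c0_g1_i1_1 had a normalised count of 175.4 in section B of big oocyte 1, against 161 to 163 in the other 3 big oocytes.

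For 5 of the named transcripts the stage difference in section B differed from that in the mean of the other sections by the test of the difference itself (edgeR, adjusted p in the report). All of them except dnd1 were named because they passed this test with the largest differences. Their passing was thus fixed by the choice, and only that of dnd1 was not. The difference was -1.20 for dnd1, 1.61 for TRINITY_DN55297_c1_g1_i1_1, 1.03 for TRINITY_DN44998_c0_g1_i1_1, -3.83 for TRINITY_DN11900_c0_g1_i2_2 and -3.24 for TRINITY_DN22804_c0_g1_i1_2, on the log2 scale. None of the 5 passed the threshold when B was set against A and C only.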

How the results depend on the processing

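The numbers called in section B stayed within 1.5 times those of the report under the alternatives run, except that 3087 were lower (and 4015 higher) with a minimum mean of 50, where fewer transcripts are tested. Without any 1 library, between 3986 and 5221 were higher and between 4351 and 5008 lower. DESeq2 called 3874 higher and 4053 lower, and the fit of all 35 libraries 4447 and 5089. Slc44a3 and dnd1 passed the threshold with DESeq2 (adjusted p = 0.0746 and 0.0731) and with all 35 libraries (0.0395 and 0.0111), a fit that treated the sections of an oocyte as separate. The test of B against the other sections called 1837 more positive with library totals, and 3 more positive and 116 more negative against A and C only. Without any 1 oocyte it called between 386 and 867 more positive and between 1080 and 1710 more negative. With the oocyte as replicate block it called 1179 more positive and 2151 more negative transcripts, and the block changed no call of a named transcript. Slc44a3 turned to 0.12 against A and C only. The uncalled TRINITY_DN46906_c1_g1_i1_1 ranged from -0.13 (without big oocyte 11) to 1.63 (without small oocyte 8) in B when 1 library was left out, and in its difference from the other sections turned to -0.45 with the block, -0.0561 against A and C only, -0.0976 without big oocyte 11 and -0.0406 without small oocyte 5. The position of B turned to a difference of 0.0192 with the list from small oocytes, 0.0111 without big oocyte 2 and 0.00934 without small oocyte 5, and among the values with 1 oocyte left out was lowest, at -0.0291, without small oocyte 6. It was -0.24 with the list from big oocytes. The 3 positive values each had an exact permutation p of 0.8. The difference of TRINITY_DN46906_c1_g1_i1_1 from the other sections was highest, at 1.08, without small oocyte 8. The causes were not tested. With 2 to 5 counts in a library, ratios of the transcripts near absence are limited by counting.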

Other observations

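Of the 27 transcripts fitted as over 4-fold higher in C of small oocytes, 18 had an identifier ending in 2 and 9 one ending in 1. Identifiers ending in 2 made up 9.37% of the table. What this ending stands for is not given in the sources used here. Among the transcripts tested in section B, those with identifiers ending in 2 were higher in big oocytes in 12.5% and lower in 21.1% of 776 cases, and those ending in 1 in 20% and 19.5% of 25017 cases.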
